A study of Mus musculus with 60 samples.

Results

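The 32 genes described here encode enzymes of cholesterol and fatty acid synthesis together with some of their regulators, and they were taken by gene symbol from a table of 50559 genes measured in mouse embryonic stem cells. All 32 were in the table and all passed the filter on low counts, which left 15083 genes to be tested. Polyadenylated RNA was sequenced from 4 lines at 5 times of culture in 2i, with 3 libraries for each line and time and 60 libraries in all. The lines were 1A cells with a knockout of Ezh2 (Ezh2 KO), 1A cells with a knockout of Eed (Eed KO), V19 wild type cells and 1A wild type cells. Ezh2 and Eed encode core subunits of PRC2, a complex that methylates histone H3. Both knockout lines were made by Cas9 editing. All lines grew in serum and LIF on gelatin. The later samples additionally received 2i, which is CHIR99021 (an inhibitor of the kinase GSK3) at 3 µM and PD0325901 (an inhibitor of the kinase MEK) at 1 µM, renewed daily and sampled after 12, 24, 48 and 96 h, and the 0 h samples received none. Each knockout is represented by 1 line, so the missing gene and any further trait of its line cannot be told apart, and the same holds for V19 against 1A. Replicates are labelled as biological without a statement of separate cultures, so the p-values measure the spread between these libraries.

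Cells make cholesterol from acetyl-CoA through mevalonate, farnesyl diphosphate, squalene and a series of sterol intermediates, and they make fatty acids from the same acetyl-CoA with NADPH as reductant. Transcription of most of these enzymes is driven by the SREBP factors, membrane proteins encoded by Srebf1 and Srebf2. When membrane sterol is plentiful, the INSIG proteins retain SREBP and its escort SCAP in the endoplasmic reticulum, and when sterol is scarce SREBP moves to the Golgi and is cleaved there to its active form. SREBP-2 acts mainly on sterol genes and SREBP-1 mainly on fatty acid genes, and both act with NF-Y, which binds the CCAAT box, and Sp1, which binds GC boxes. In embryonic stem cells, as in other dividing cells, the pathway supplies membrane lipid.

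Because the 32 genes are grouped by a shared regulator, 4 promoters are shown. They are those of a mevalonate enzyme (Hmgcs1), of the sterol enzymes Msmo1 and Ebp, which rose in 2i, and of fatty acid synthase (Fasn). The mean of Fasn was lower at 12 h than at 0 h in all 4 lines. The sequences are RefSeq promoters of build GRCm38.p6, read 5′ to 3′ on the gene's strand over 250 bases before to 50 bases after the annotated start. Capitals mark every CCAAT box, written CCAAT or on the other strand ATTGG, and every match to the sterol regulatory element TCACNCCAC.
Hmgcs1, chr13:119690101-119690400, plus strand: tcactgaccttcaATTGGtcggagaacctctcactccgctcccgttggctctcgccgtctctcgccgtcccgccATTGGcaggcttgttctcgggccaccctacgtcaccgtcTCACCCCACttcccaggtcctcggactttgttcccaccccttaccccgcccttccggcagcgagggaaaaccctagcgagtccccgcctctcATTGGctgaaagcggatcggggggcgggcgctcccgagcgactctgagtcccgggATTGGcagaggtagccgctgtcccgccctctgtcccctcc
Msmo1, chr8:64733529-64733828, minus strand: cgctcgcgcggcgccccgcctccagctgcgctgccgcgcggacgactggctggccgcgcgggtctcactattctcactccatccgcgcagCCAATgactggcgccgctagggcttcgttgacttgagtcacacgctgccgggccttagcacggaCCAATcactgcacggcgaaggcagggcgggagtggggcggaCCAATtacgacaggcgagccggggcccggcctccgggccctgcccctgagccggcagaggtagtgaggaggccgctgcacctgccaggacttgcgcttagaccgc
Ebp, chrX:8193463-8193762, minus strand: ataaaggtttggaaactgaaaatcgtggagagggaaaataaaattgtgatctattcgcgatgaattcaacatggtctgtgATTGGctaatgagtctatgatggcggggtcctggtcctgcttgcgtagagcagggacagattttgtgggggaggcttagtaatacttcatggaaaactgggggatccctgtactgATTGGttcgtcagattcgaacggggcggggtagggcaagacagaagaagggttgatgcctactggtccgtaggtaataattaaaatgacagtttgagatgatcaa
Fasn, chr11:120824498-120824797, minus strand: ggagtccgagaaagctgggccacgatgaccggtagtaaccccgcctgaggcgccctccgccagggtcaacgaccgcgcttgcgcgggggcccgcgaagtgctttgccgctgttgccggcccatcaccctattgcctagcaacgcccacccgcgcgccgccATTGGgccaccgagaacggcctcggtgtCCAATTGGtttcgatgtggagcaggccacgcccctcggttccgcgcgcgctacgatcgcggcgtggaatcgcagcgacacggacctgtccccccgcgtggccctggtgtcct
In Hmgcs1 the match to TCACNCCAC begins 137 bases before the start. Of the 32 genes 25 had a promoter in the table, with 31 windows. On either strand, TCACNCCAC was in 1 of these 31 windows (3.23%), against 1.24% of all 32817 windows of that length. CCAAT was in 22 (71%) against 37.4%, GGGCGG in 23 (74.2%) against 35.6%, and CACGTG in 4 (12.9%) against 7.15%. The motifs were chosen after the sequences had been seen, a match describes these letters and no binding, and a window without a match says nothing of the factor.

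Libraries held 2561169 to 11065948 counts (median 6055990) and 17316 to 23126 genes with a count, and mitochondrial genes took 0.609 to 2.17% of the counts. Levels are given as CPM, counts scaled to the library total after TMM normalization. Ezh2 was at 14.5 to 19.9 CPM in the 15 Ezh2 KO libraries and at 194 to 278 CPM in the 15 of 1A. Eed was at 15.3 to 28.2 CPM in the 15 Eed KO libraries and at 246 to 393 CPM in the 15 of 1A. None of 10 markers of embryonic stem cells was at 0 in any of the 20 groups. The same held for 12 markers of primitive and parietal endoderm, so this alone does not show the cell type. In 6 libraries the expression profile stood apart from that of its group (a root mean square deviation over 0.2 on the log2 scale, 1.5 times the median), namely replicates 1 and 3 of Eed KO at 12 h, replicate 1 of 1A at 24 h, replicate 3 of 1A at 48 h and replicates 2 and 3 of V19 at 48 h. Results named from these groups are given also without them. In Eed KO at 12 h and V19 at 48 h this left 1 library, replicate 2 and replicate 1. Each deviated least from the mean of its own group, so its value is no independent check of the full-group value. For these, effect sizes are given without p-values. In the comparisons below, "rose", "fell", "higher" and "lower" are used of single genes with an adjusted p under 0.05. The test was edgeR's quasi-likelihood test, adjusted by Benjamini-Hochberg over the 15083 genes. Each such call of the cholesterol and fatty acid synthesis genes remained when any 1 library of its groups was left out. The exceptions have libraries or a number of such fits named beside them. Calls of cell type markers and of related genes outside this list were not checked in such fits.

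In all 4 lines more of the 32 genes were called higher than lower at each time in 2i, and the median of their log2 fold changes was above 0 at each time. In Ezh2 KO cells 16, 23, 22 and 24 genes were called higher at 12, 24, 48 and 96 h, where 26.2%, 24.5%, 25.1% and 22.2% of all genes were. Called lower were 5, 1, 0 and 1, where 23.9%, 22.2%, 24% and 20.7% of all genes were. In every fit that left out 1 library 13, 20, 21 and 23 of the higher calls and 1, 1, 0 and 1 of the lower calls remained. Called in either direction were 50.1%, 46.7%, 49.1% and 42.8% of all genes. The median log2 fold changes of the 32 were 0.28, 0.44, 0.57 and 0.62, against 0.05, 0.03, 0.01 and 0.02 over all genes. In Eed KO cells 20, 25, 20 and 17 genes were called higher at 12, 24, 48 and 96 h, where 25.2%, 23.4%, 28.1% and 23.3% of all genes were. Called lower were 6, 0, 0 and 1, where 25.2%, 17.7%, 21.1% and 16.4% of all genes were. In every fit that left out 1 library 18, 21, 19 and 15 of the higher calls and 3, 0, 0 and 1 of the lower calls remained. Called in either direction were 50.3%, 41.1%, 49.2% and 39.7% of all genes. The median log2 fold changes of the 32 were 0.43, 0.42, 0.47 and 0.34, against 0.02, 0.06, 0.04 and 0.05 over all genes. In V19 cells 13, 12, 21 and 21 genes were called higher at 12, 24, 48 and 96 h, where 21.5%, 21%, 26.7% and 24.8% of all genes were. Called lower were 2, 2, 4 and 0, where 20.8%, 19.4%, 24.2% and 22.7% of all genes were. In every fit that left out 1 library 10, 10, 16 and 18 of the higher calls and 2, 0, 2 and 0 of the lower calls remained. Called in either direction were 42.3%, 40.4%, 50.8% and 47.5% of all genes. The median log2 fold changes of the 32 were 0.15, 0.25, 0.63 and 0.59, against 0.04, 0.01, 0.03 and 0.01 over all genes. In 1A cells 15, 13, 17 and 15 genes were called higher at 12, 24, 48 and 96 h, where 20%, 24%, 26.8% and 25.1% of all genes were. Called lower were 6, 6, 5 and 3, where 20.8%, 22.4%, 26.2% and 23.5% of all genes were. In every fit that left out 1 library 10, 8, 12 and 14 of the higher calls and 3, 5, 4 and 1 of the lower calls remained. Called in either direction were 40.8%, 46.4%, 53% and 48.6% of all genes. The median log2 fold changes of the 32 were 0.25, 0.19, 0.27 and 0.31, against 0.02, 0.03, 0.02 and 0.02 over all genes. Some counts of lower calls moved when 1 library was left out. In Ezh2 KO at 12 h the 5 were 3 without replicate 2 at 0 h or replicate 2 at 12 h, 2 without replicate 3 at 0 h and 1 without replicate 1 at 12 h. In Eed KO at 12 h the 6 were 3 without replicate 1 at 12 h. In V19 at 24 h the 2 were 0 without replicate 1 or 3 at 0 h or replicate 2 at 24 h and 1 without replicate 3 at 24 h. In 1A at 96 h the 3 were 1 without replicate 2 or 3 at 0 h or replicate 1 or 3 at 96 h. The counts of 0 lower were 1 in Ezh2 KO at 48 h without replicate 1 at 0 h, in Eed KO at 48 h without replicate 1 at 48 h and in V19 at 96 h without replicate 2 at 0 h. On the authors' RUV-normalized score the lower calls were 2 in Ezh2 KO at 12 h and 1 in 1A at 96 h. In Eed KO at 48 h 15 genes were called higher on that score and the median of the 32 was 0.24. Where edgeR called 0 genes lower, DESeq2 also called 0, and an unadjusted p under 0.05 was reached by 1 gene in Ezh2 KO at 48 h, by 1 in V19 at 96 h and by 0 in Eed KO at 24 and at 48 h. With no filter 2, 2 and 1 genes were called lower in Ezh2 KO at 48 h, V19 at 96 h and Eed KO at 48 h, and with RLE size factors 1, 1 and 0. Without the libraries that stood apart, 14 were higher and 8 lower in 1A at 24 h and 16 and 5 in 1A at 48 h. The call that ended without them in 1A was that of Cyp51 at 48 h. With 1 library left, those of Mvk, Nsdhl, Sc5d and Idi1 ended in Eed KO at 12 h. In V19 at 48 h, also with 1 library left, those of Acat2, Mvk, Lss, Elovl6 and Fads2 ended. The median log2 fold changes of the 32 were then 0.47 in Eed KO at 12 h, 0.63 in V19 at 48 h, 0.15 in 1A at 24 h and 0.25 in 1A at 48 h.

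Markers of other cell types changed over the same times. Of 12 markers of primitive and parietal endoderm, 11, 12, 8 and 6 were called lower at 96 h in Ezh2 KO, Eed KO, V19 and 1A (where 20.7%, 16.4%, 22.7% and 23.5% of all genes were lower). Their sum at 96 h against 0 h was 795 to 811 CPM against 1180 to 1290 CPM in Ezh2 KO and 2400 to 2680 CPM against 5860 to 6200 CPM in Eed KO. It was 849 to 941 CPM against 787 to 886 CPM in V19 and 886 to 999 CPM against 751 to 824 CPM in 1A. Of 10 trophoblast markers 7, 7, 4 and 5 were called higher at 96 h and 1, 2, 1 and 2 lower. At 48 h against 0 h their sum was 429 to 474 CPM against 198 to 204 CPM in Ezh2 KO and 5280 to 5960 CPM against 1710 to 2240 CPM in Eed KO. It was 322 to 420 CPM against 114 to 120 CPM in V19 and 830 to 866 CPM against 286 to 339 CPM in 1A. Their 96 h sum was 299 to 321, 3000 to 3110, 180 to 186 and 372 to 449 CPM. Of 8 visceral endoderm markers 5 were tested and 2, 3, 2 and 3 were called lower at 96 h. Their sum was 46.6 to 72.8 CPM against 209 to 266 CPM in Ezh2 KO and 121 to 168 CPM against 470 to 626 CPM in Eed KO. It was 38.6 to 54.2 CPM against 129 to 174 CPM in V19 and 34.9 to 49.6 CPM against 165 to 218 CPM in 1A. Ttr was at 0 in Ezh2 KO and both Afp and Ttr in V19 and 1A at 96 h. Of 10 embryonic stem cell markers 2, 5, 5 and 5 were called higher and 6, 3, 5 and 3 lower at 96 h. Their sum was 5900 to 6150 CPM against 6690 to 6770 CPM in Ezh2 KO and 4150 to 4230 CPM against 3920 to 4080 CPM in Eed KO. It was 5970 to 6150 CPM against 5920 to 6030 CPM in V19 and 5790 to 6130 CPM against 5290 to 5420 CPM in 1A. In Eed KO this sum was lower in between, at 2830 to 3060, 2570 to 2700 and 2790 to 2870 CPM at 12, 24 and 48 h. The other lines stood at 4510 to 6880 CPM at these times. In Eed KO at 24 h the trophoblast sum (4630 to 5100 CPM) and the primitive and parietal endoderm sum (4210 to 5520 CPM) lay above it. Of the 8 fibroblast markers 5 were tested, and at 96 h against 0 h the sum was 3.8 to 6.66 CPM against 9.54 to 11.1 CPM in Ezh2 KO and 30.8 to 33.9 CPM against 28 to 30 CPM in Eed KO. It was 10.8 to 14.1 CPM against 10.2 to 12.5 CPM in V19 and 10.3 to 13.8 CPM against 11.7 to 16.8 CPM in 1A. The mitochondrial share of the counts, a sign of RNA quality, was 1.79, 2.17 and 1.86% at 48 h in Ezh2 KO, against 1.07, 0.973 and 1.16% at 0 h. It was 1.46 to 1.83% at 24 h and 1.18 to 1.46% at 96 h in Ezh2 KO, and none of these 3 times overlapped 0 h. The 48 h and 0 h ranges overlapped in the other lines, at 1.06 to 1.9% against 1.35 to 1.48% in Eed KO, 1.29 to 1.5% against 1.1 to 1.3% in V19 and 0.725 to 1.59% against 0.929 to 1.15% in 1A. In V19 it was lower at 12 h, at 0.735 to 1.02%. In the Eed KO libraries at 12 h it was 0.761, 0.962 and 2.05%, the first and the last being those that stood apart. The part of these cell types and of RNA quality in the values of the 32 genes was not tested.

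**Figure D1:**
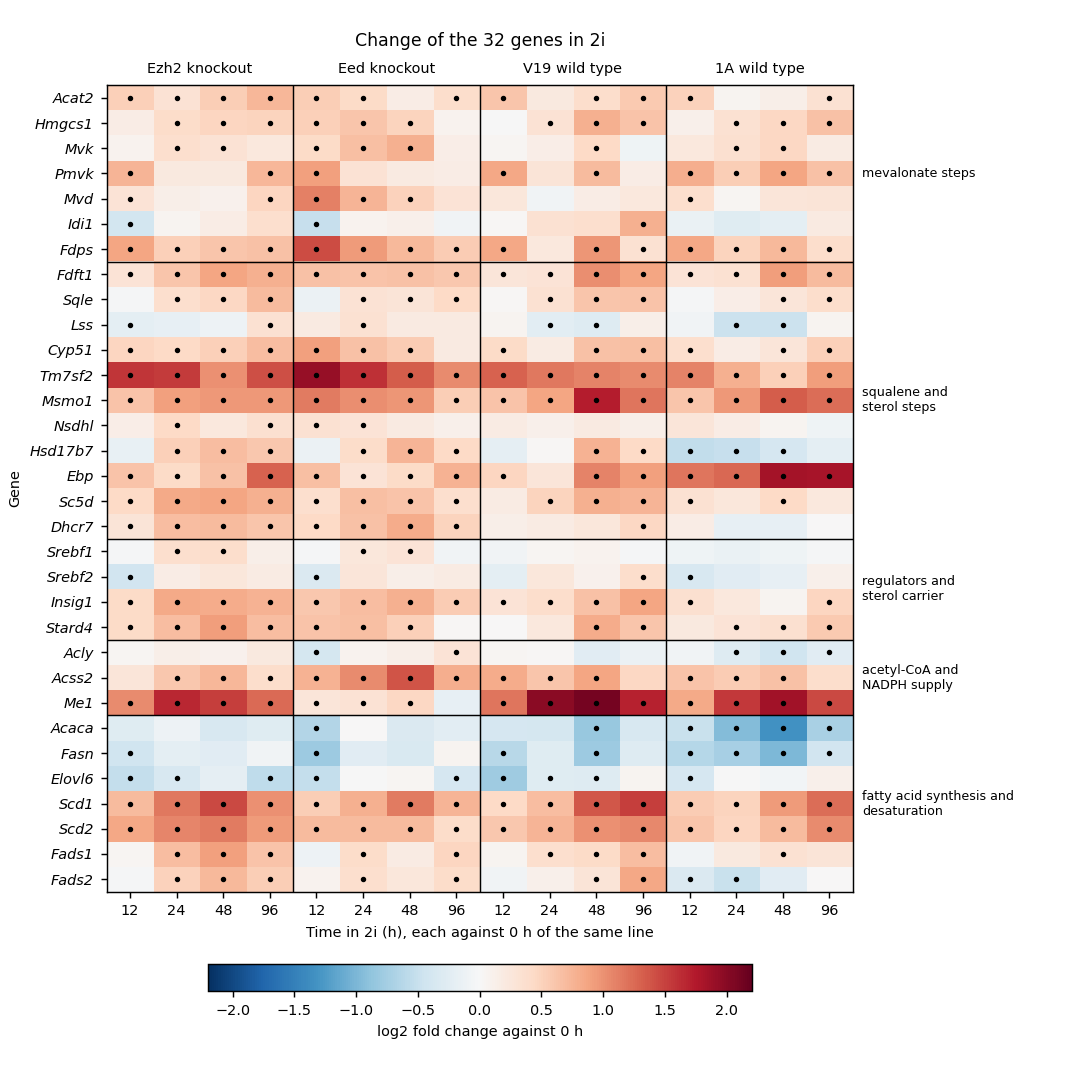
Colour gives the log2 fold change of each of the 32 genes (rows, ordered by role) at 12, 24, 48 and 96 h in 2i against 0 h of the same line (columns, in blocks for the 4 lines), and a dot marks an adjusted p under 0.05. Fdft1, Tm7sf2, Msmo1, Scd1 and Scd2 are higher with a dot at every time in all 4 lines, while Acaca and Fasn are lower with a dot at every time in 1A. Some of these calls ended in fits that left out 1 library. In 1A these include Acaca and Fdft1 at 12 h, Fasn at 96 h, Tm7sf2 at 48 h and Scd1 at 24 h.

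Among the 7 genes of the mevalonate steps, which carry acetyl-CoA to farnesyl diphosphate, Fdps rose within 12 h and Hmgcs1 rose later in all lines but Eed KO. Fdps makes farnesyl diphosphate. At 12 h its libraries held 303, 249 and 234 CPM in Eed KO, against 98.2, 95.5 and 95.04 CPM at 0 h. Ezh2 KO libraries held 227, 191 and 182 CPM at 12 h and 117, 110.4 and 101 CPM at 0 h, and those of 1A 170.4, 179 and 195 CPM at 12 h and 100.1, 104 and 96.1 CPM at 0 h. In these lines every 12 h library lay above every 0 h library. The log2 fold changes were 0.87 ± 0.127 (SE, adjusted p = 9.84e-08) in Ezh2 KO, 1.44 ± 0.13 (3.17e-13) in Eed KO, 0.84 ± 0.13 (4.46e-07) in V19 and 0.86 ± 0.13 (3.5e-07) in 1A. Without replicates 1 and 3 of Eed KO at 12 h, which left 1 library there, the Eed KO value was 1.36. At 96 h the increase was 0.64, 0.56 and 0.39 in Ezh2 KO, Eed KO and 1A. In V19 it was 0.33 at 96 h (adjusted p = 0.0359), a call that ended in 6 of the 6 fits that left out 1 library.

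Hmgcs1 encodes the synthase of the precursor HMG-CoA. In 1A its libraries held 348, 347 and 352 CPM at 96 h, against 228, 218 and 224 CPM at 0 h, a log2 fold change of 0.64 ± 0.0785 (adjusted p = 9.9e-10). V19 libraries held 296, 296 and 293 CPM at 96 h and 192, 186 and 195 CPM at 0 h (0.63 ± 0.0791, 2.75e-09). In Ezh2 KO the libraries stood at 316, 326 and 294 CPM at 96 h, against 217, 209.5 and 237 CPM at 0 h (0.50 ± 0.078, 6.04e-07). The 96 h and 0 h libraries did not overlap in any of these lines. In Eed KO Hmgcs1 averaged 192 ± 4.86, 275 ± 41.7, 294 ± 13.2, 269 ± 15.1 and 203 ± 4.21 CPM (SD, n = 3) at 0, 12, 24, 48 and 96 h. It rose there at 12, 24 and 48 h (by 0.52 at 12 h, and by 0.57 without replicates 1 and 3), and at 96 h its log2 fold change was 0.08 ± 0.0787 (adjusted p = 0.433).

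Pmvk and Mvd act on phosphorylated mevalonate. Pmvk rose at 12 h by 0.76 ± 0.162 in Ezh2 KO, 0.90 ± 0.161 in Eed KO, 0.85 ± 0.174 in V19 and 0.80 ± 0.176 in 1A (log2 ± SE), with libraries at 58.5 to 66.6, 67.6 to 118, 49.1 to 59.3 and 47.5 to 50.6 CPM at 12 h in that order. Without replicates 1 and 3 of Eed KO at 12 h the Eed KO increase of Pmvk was 0.83. Mvd at 12 h held 68.96, 55.03 and 48.3 CPM in Eed KO, against 28.96, 26.1 and 23.1 CPM at 0 h, with no overlap and a log2 fold change of 1.12 ± 0.132 (adjusted p = 8.83e-10). Without replicates 1 and 3 at 12 h it was 1.07. In V19 Mvd was called at no time, with log2 fold changes of 0.25, −0.07, 0.16 and 0.24 at 12, 24, 48 and 96 h, and 0.23 at 48 h without replicates 2 and 3. Mvk, mevalonate kinase, rose at 48 h in Eed KO, where its libraries held 59.8, 69.8 and 55.3 CPM, all above the 33.5, 39.4 and 34.6 CPM at 0 h (0.79 ± 0.119, 1.93e-07, and 0.52 on the authors' RUV-normalized score). Acat2, which makes acetoacetyl-CoA, rose at 12 h by 0.53, 0.55, 0.61 and 0.51 in Ezh2 KO, Eed KO, V19 and 1A, and by 0.64 in Eed KO without replicates 1 and 3 at 12 h. Idi1, the isopentenyl diphosphate isomerase, rose in V19 at 96 h, to 18.4, 19.8 and 17.4 CPM, against 12.2, 9.84 and 9.79 CPM at 0 h (0.79 ± 0.182, 0.000307), and was called higher at no other time or line. Without replicates 2 and 3 of V19 at 48 h, which left 1 library there, its log2 fold change at 48 h was 0.65. Counting is not stated to use strand. Of the exonic bases of Acat2 30.5% overlap Gm20591 on the opposite strand. Of those of Mvd 28.6% overlap LOC118567623 and 7.51% Gm51557, also on the opposite strand, so the values of Acat2 and Mvd are uncertain. The overlaps are 7.43% in Fdft1 (with Ctsb), 5.48% in Lss and 3.99% in Acss2.

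Of the 11 genes from squalene to cholesterol, 11, 8, 9 and 6 were called higher at 96 h in Ezh2 KO, Eed KO, V19 and 1A, where 22.2%, 23.3%, 24.8% and 25.1% of all genes were, with median log2 fold changes of 0.69, 0.45, 0.66 and 0.39. Msmo1, a C4-methyl sterol oxidase (chr8:65171157-65186822 on GRCm39), rose at each time in each line. In 1A it held 119, 122 and 133 CPM at 96 h, against 58.6, 52.4 and 47.05 CPM at 0 h, a log2 fold change of 1.24 ± 0.145 (adjusted p = 3.96e-10). In V19 it held 223, 277 and 191 CPM at 48 h, against 68.6, 73.2 and 67.1 CPM at 0 h (1.72 ± 0.144, 9.65e-15). Without V19 replicates 2 and 3 at 48 h the V19 value was 1.68, and neither comparison's libraries overlapped. Ezh2 KO libraries held 158, 128 and 133 CPM at 96 h, against 71.5, 73.5 and 70.0 CPM at 0 h (0.96 ± 0.14, 1.17e-07). In Eed KO the mean was highest at 12 h, with 60.5 ± 3.48, 134 ± 27.4, 123 ± 25.6, 118 ± 17.03 and 88.1 ± 6.06 CPM (SD, n = 3) at 0, 12, 24, 48 and 96 h, and the 96 h increase was 0.54 ± 0.143 (0.00184). At 12 h it was 1.14, and 1.19 without replicates 1 and 3. In 1A without the libraries that stood apart it was 1.12 at 24 h and 1.22 at 48 h.

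Ebp, a sterol isomerase encoded on chromosome X (chrX:8051568-8059751 on GRCm39), had the largest 96 h increase of the 32 genes in 1A. It held 50.9, 58.5 and 50.8 CPM at 96 h, against 15.5, 16.2 and 13.5 CPM at 0 h, a 3.51-fold increase (log2 1.81 ± 0.138, adjusted p = 4.02e-16). At 96 h Ezh2 KO libraries held 73.5, 64.98 and 60.4 CPM, those of Eed KO 48.98, 59.8 and 53.9 CPM and those of V19 45.04, 54.0 and 45.7 CPM. At 0 h Ezh2 KO held 29.8, 26.5 and 24.5 CPM, Eed KO 36.05, 32.6 and 27.5 CPM and V19 26.5, 23.6 and 27.04 CPM. The 1A libraries lay below all of these at 0 h and within their range at 96 h. The 96 h increases were 1.30 ± 0.123 in Ezh2 KO, 0.76 ± 0.123 in Eed KO and 0.91 ± 0.132 in V19.

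Tm7sf2, a C14 sterol reductase, rose within 12 h in all 4 lines. It held 19.5, 18.9 and 21.8 CPM at 12 h in Ezh2 KO, against 6.88, 8.01 and 5.09 CPM at 0 h, and 22.2, 17.9 and 14.7 CPM in Eed KO, against 3.62, 6.27 and 4.22 CPM. In V19 it held 20.1, 18.4 and 19.2 CPM at 12 h and 7.97, 6.76 and 8.73 CPM at 0 h, and in 1A 19.1, 16.7 and 18.7 CPM at 12 h and 6.07, 12.4 and 6.61 CPM at 0 h. No 12 h library overlapped a 0 h library of its line. The increases were 2.97-fold in Ezh2 KO, 3.79-fold in Eed KO, 2.46-fold in V19 and 2.13-fold in 1A (adjusted p = 1.79e-10, 5.61e-11, 1.28e-07 and 3.65e-06). Without replicates 1 and 3 of Eed KO at 12 h the log2 fold change of Eed KO was 1.93, with all 3 replicates 1.92. At 96 h the log2 fold changes were 1.41, 1.03, 1.04 and 0.93 in Ezh2 KO, Eed KO, V19 and 1A. At 48 h in 1A it was 0.52 (adjusted p = 0.0287), the groups overlapped, and the call ended in 3 of the 6 fits that left out 1 library, while it was 0.53 (0.033) without replicate 3 at 48 h.

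Fdft1, squalene synthase, rose at 48 h by 0.86 ± 0.0869 in Ezh2 KO, 0.64 ± 0.0889 in Eed KO, 1.02 ± 0.0897 in V19 and 0.92 ± 0.0904 in 1A. In 1A it held 128, 145 and 126 CPM at 48 h, against 71.3, 66.8 and 74.5 CPM at 0 h, with no overlap. Without the libraries that stood apart at 48 h the increases were 0.94 in V19 and 0.97 in 1A. Sqle, squalene epoxidase, was not called at 12 h in any line, with log2 fold changes of −0.03, −0.13, 0.03 and −0.03 in Ezh2 KO, Eed KO, V19 and 1A. At 96 h it rose by 0.69 ± 0.0714, 0.45 ± 0.072, 0.63 ± 0.0742 and 0.39 ± 0.0733 in the same order. Its 96 h libraries held 231, 217 and 231 CPM in Ezh2 KO, against 136, 139 and 144 CPM at 0 h, and 149, 146 and 152 CPM in 1A, against 113, 109.6 and 118 CPM, without overlap in either line. Cyp51, the lanosterol demethylase, rose at 12 h by 0.47, 0.90, 0.42 and 0.37 in Ezh2 KO, Eed KO, V19 and 1A, and Sc5d, a sterol desaturase, rose at 48 h by 0.87, 0.63, 0.79 and 0.44. With the libraries that stood apart left out, Cyp51 was at 0.90 in Eed KO, Sc5d at 0.61 in V19 and 0.45 in 1A, and Sqle at −0.09 at 12 h in Eed KO. On the RUV-normalized score the Eed KO value of Sc5d was 0.40.

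Hsd17b7, Dhcr7, Nsdhl and Lss were not called higher in 1A at any time. Hsd17b7, a sterol ketoreductase, held 10.6, 9.13 and 12.4 CPM at 12 h in 1A, against 13.9, 16.01 and 16.8 CPM at 0 h, and fell by 0.54 on the log2 scale (SE 0.139, adjusted p = 0.0014). At 96 h 1A libraries held 14.3, 12.6 and 13.03 CPM, which overlapped those at 0 h (−0.21 ± 0.134, adjusted p = 0.204). In both knockout lines it was higher at 96 h than at 0 h. Ezh2 KO libraries held 22.96, 22.8 and 19.5 CPM, against 13.9, 15.5 and 13.4 CPM at 0 h (0.59 ± 0.121, 6.81e-05), and Eed KO libraries 28.9, 25.2 and 27.6 CPM, against 20.9, 17.9 and 21.4 CPM (0.44 ± 0.115, 0.00178). The Eed KO call ended on the authors' RUV-normalized score, with 0.20 (adjusted p = 0.26). In V19 the change was 0.44 at 96 h (adjusted p = 0.00862), and without V19 replicate 2 at 96 h it was 0.34 (0.0839).

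Dhcr7, the last reductase of the pathway, rose at 96 h by 0.61 ± 0.121 in Ezh2 KO, 0.49 ± 0.118 in Eed KO and 0.45 ± 0.126 in V19, and was at 0.02 ± 0.127 in 1A (adjusted p = 0.927). The Eed KO value was 0.31 on the RUV-normalized score. Nsdhl, a sterol dehydrogenase encoded on chromosome X, rose in Ezh2 KO at 24 h (0.44 ± 0.112, 0.00087) and was called in neither V19 nor 1A at any time. Lss, lanosterol synthase, fell in 1A at 24 and 48 h, by 0.47 and 0.47 on the log2 scale (SE 0.092 and 0.0951). Its 1A libraries held 63.95, 55.2 and 72.7 CPM at 0 h, 52.4, 40.4 and 44.6 CPM at 24 h, 46.1, 44.3 and 47.8 CPM at 48 h and 68.9, 69.2 and 60.4 CPM at 96 h, so that the 24 and 48 h libraries lay below all of those at 0 h and the 96 h libraries among them. Without the libraries that stood apart the changes were −0.58 at 24 h and −0.48 at 48 h.

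**Figure D2:**
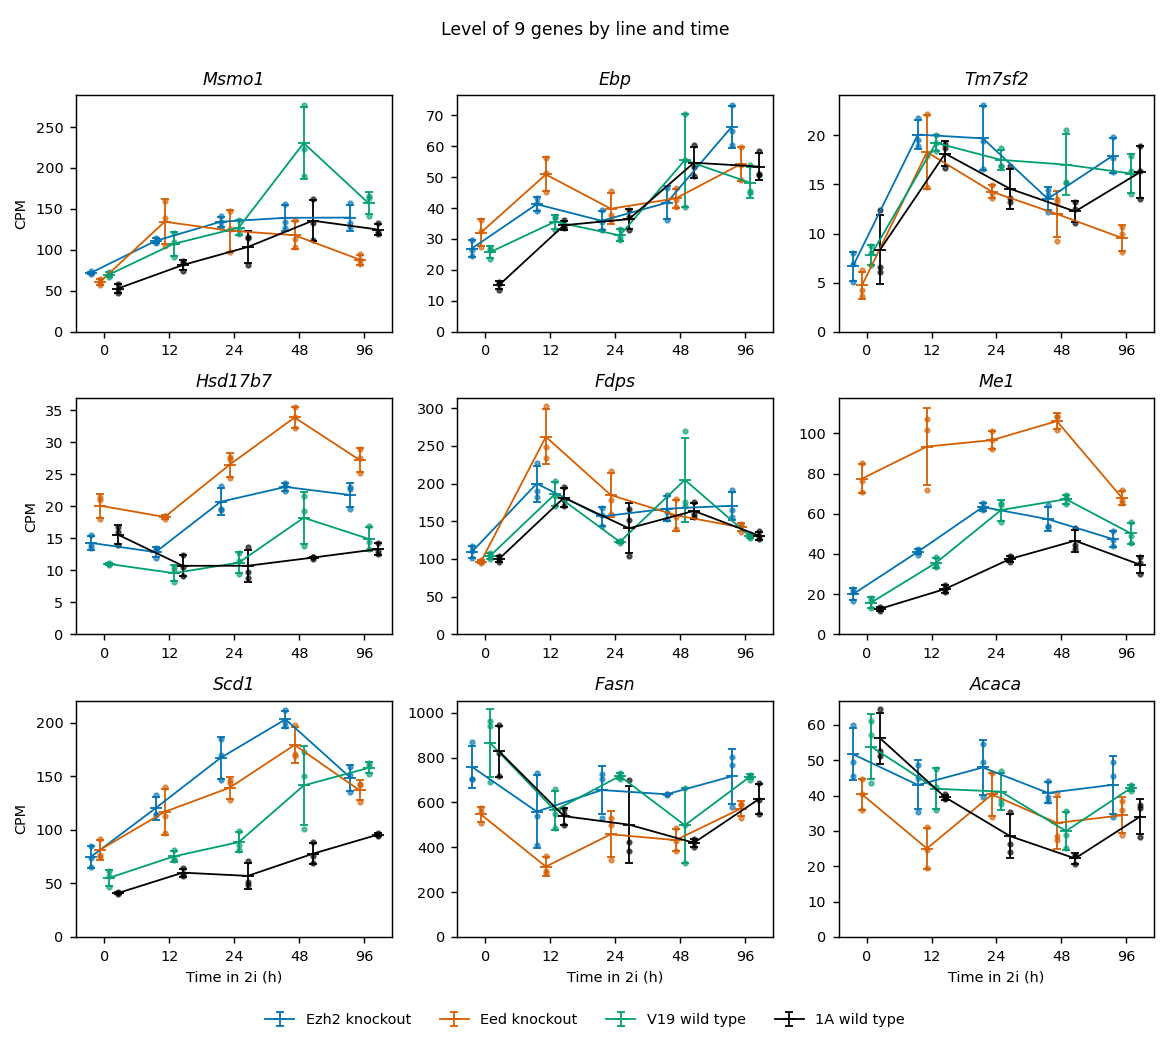
Points are the 3 libraries of each group, lines join the means and bars are their SD, for 9 genes, as CPM (y axis) at 0, 12, 24, 48 and 96 h in 2i (x axis, evenly spaced and not to scale) in the 4 lines (colours). Ebp in 1A starts at 13.5 to 16.2 CPM, below the other lines, Me1 in Eed KO starts at 71.1 to 85.03 CPM, above them, and Fasn has a lower mean at 12 h than at 0 h in all 4 lines.

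Of the regulators, Insig1 rose in all 4 lines at 96 h, and the genes of the SREBP factors themselves were called at few times. Srebf2 at 96 h held 289.7, 312 and 266 CPM in 1A, against 249, 283 and 275 CPM at 0 h, and the groups overlapped (log2 0.11 ± 0.12, adjusted p = 0.493). In V19 it was higher at 96 h, at 311, 291 and 305 CPM, against 243, 206 and 243 CPM at 0 h, without overlap (0.39 ± 0.121, 0.00671). It was at 0.31 (0.0581) without V19 replicate 2 at 0 h. At 96 h in Ezh2 KO and Eed KO it was at 0.17 and 0.19, neither called. At 12 h its log2 fold changes were −0.42, −0.32, −0.22 and −0.35 in Ezh2 KO, Eed KO, V19 and 1A. The Ezh2 KO value was called (adjusted p = 0.00322) and became −0.28 (0.0647) without Ezh2 KO replicate 1 at 12 h. The calls in Eed KO (0.0244) and 1A (0.0162) ended in 4 and 2 of 6 such fits. Without replicates 1 and 3 the Eed KO value was −0.34. In 1A at 24 h Srebf2 was at −0.25, not called, and at −0.42 (0.000924) without replicate 1 at 24 h. Srebf1 was called at no time in V19 or 1A. In Ezh2 KO it rose at 24 and 48 h by 0.37 ± 0.101 and 0.39 ± 0.101 (adjusted p = 0.00199 and 0.000984), to 83.8, 81.6 and 87.5 CPM at 48 h, against 58.1, 62.8 and 71.4 CPM at 0 h, with no overlap. In Eed KO it was called higher at 24 h (0.25, 0.0357), a call that ended in 5 of the 6 fits that left out 1 library. It was also called at 48 h (0.29, 0.012), with 0.26 (0.0531) without Eed KO replicate 2 at 48 h. On the RUV-normalized score it was at 0.09 and 0.03, not called.

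Insig1, which retains SREBP and is itself an SREBP target, rose at 96 h by 0.77 ± 0.0965 in Ezh2 KO, 0.56 ± 0.0974 in Eed KO, 0.87 ± 0.102 in V19 and 0.48 ± 0.101 in 1A. Its V19 libraries held 79.5, 81.6 and 91.5 CPM at 96 h, against 45.5, 43.7 and 49.6 CPM at 0 h, and those of 1A 74.02, 77.4 and 76.2 CPM, against 53.9, 47.5 and 63.1 CPM, without overlap. Stard4, a carrier of cholesterol between membranes, rose at 96 h by 0.68, 0.60 and 0.57 in Ezh2 KO, V19 and 1A, and was at 0.03 ± 0.116 in Eed KO (adjusted p = 0.868). In Eed KO it rose at 48 h, to 63.1, 62.6 and 62.2 CPM, against 40.8, 41.5 and 47.9 CPM at 0 h (0.53 ± 0.115, 0.000121), a call that ended on the RUV-normalized score (0.17, 0.288).

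Among the genes that supply acetyl-CoA and NADPH, Me1, the NADPH-producing malic enzyme, had the largest increases at each time in Ezh2 KO, V19 and 1A, and Acss2 in Eed KO. In V19 it held 69.2, 64.8 and 67.7 CPM at 48 h, against 12.8, 16.6 and 17.9 CPM at 0 h, a 4.31-fold increase (log2 2.11 ± 0.131, adjusted p = 2.07e-19). In 1A it held 42.3, 44.6 and 52.8 CPM at 48 h, against 13.6, 11.8 and 12.7 CPM at 0 h (3.6-fold, 1.25e-16), and in Ezh2 KO 64.4, 53.5 and 54.1 CPM, against 20.8, 22.4 and 16.5 CPM (log2 1.52 ± 0.12, 1.26e-15). No 48 h library of these lines overlapped a 0 h library, and without the libraries that stood apart the log2 fold changes were 2.15 in V19 and 1.79 in 1A. Eed KO libraries already held 76.3, 85.03 and 71.1 CPM at 0 h and averaged 77.5 ± 7.05, 93.5 ± 19.1, 96.6 ± 4.47, 106 ± 3.84 and 67.99 ± 3.56 CPM (SD, n = 3) at 0, 12, 24, 48 and 96 h. At 12 h the log2 fold change was 0.26, and 0.46 without replicates 1 and 3. The 48 h increase was 0.45 ± 0.105 (adjusted p = 0.000293), which was −0.09 (0.621) on the RUV-normalized score, and the 96 h change was −0.19 ± 0.106 (0.158).

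Acss2, which makes acetyl-CoA from acetate, rose at 48 h by 1.39 ± 0.157 in Eed KO (adjusted p = 1.4e-10), to 23.5, 25.5 and 25.3 CPM, against 9.45, 8.19 and 10.6 CPM at 0 h, and by 0.91 on the RUV-normalized score. Acly, which makes cytosolic acetyl-CoA from citrate, fell at 48 h in 1A, to 434, 415 and 342 CPM, against 508, 526 and 583 CPM at 0 h, by 0.44 on the log2 scale (SE 0.105, adjusted p = 0.000435). Without 1A replicate 3 at 48 h the value was −0.33 (0.000255). The 48 h and 0 h libraries did not overlap for either gene. At 48 h Acly was at 0.09, 0.14 and −0.24 in Ezh2 KO, Eed KO and V19, none of them called, and at −0.22 in V19 without replicates 2 and 3.

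The 7 genes of fatty acid synthesis and desaturation did not all move one way. Fasn, fatty acid synthase, and Acaca, the acetyl-CoA carboxylase that makes its substrate, fell in 1A at 24 and 48 h, in V19 at 48 h and in Eed KO at 12 h. The desaturases Scd1 and Scd2 rose in all 4 lines, and the desaturase Fads2 fell in 1A at 24 h and rose in the other lines at 96 h. In 1A Acaca held 20.6, 22.8 and 23.3 CPM at 48 h, against 52.7, 51.3 and 64.6 CPM at 0 h, and fell by 1.34 on the log2 scale (SE 0.18, adjusted p = 1.34e-08). Fasn in 1A held 423, 401 and 436 CPM at 48 h, against 720.1, 819 and 945 CPM at 0 h (−0.98 ± 0.186, 1.57e-05). Neither gene's groups overlapped, and without 1A replicate 3 at 48 h the values were −1.34 and −0.99. At 96 h in 1A Acaca held 37.2, 36.6 and 28.3 CPM and was still lower (−0.71 ± 0.166, 0.000335), while Fasn was at −0.43 (0.0488), a call that ended in 4 of the 6 fits that left out 1 library. At 24 h in 1A the changes were −0.96 for Acaca and −0.72 for Fasn, and −1.14 and −1.04 without replicate 1 at 24 h. Both genes were also called lower at 12 h in 1A. The Acaca call there ended without 1A replicate 3 at 0 h (−0.39, adjusted p = 0.0823). In V19 Acaca held 28.9, 25.2 and 35.8 CPM at 48 h, against 57.1, 43.5 and 61.1 CPM at 0 h (−0.83 ± 0.177, 9.9e-05), and Fasn 498, 332 and 666 CPM, against 964, 692 and 941 CPM (−0.79 ± 0.185, 0.000322). The V19 groups did not overlap for either gene. The values without V19 replicates 2 and 3 at 48 h were −0.90 and −0.80. Acaca fell at 12 h in Eed KO, to 19.4, 24.6 and 31.1 CPM, against 40.5, 35.9 and 44.7 CPM at 0 h (−0.65 ± 0.173, 0.00149, and −0.72 without replicates 1 and 3). At 96 h it was at −0.36 and −0.23 in V19 and Eed KO, neither called. Fasn fell at 12 h in Eed KO, to 285, 293 and 362 CPM, against 574, 508 and 558 CPM at 0 h (−0.80 ± 0.186, 0.000342), and in V19, to 548, 660.1 and 486 CPM, against 964, 692 and 941 CPM (−0.62 ± 0.184, 0.00535). Without replicates 1 and 3 of Eed KO at 12 h the Eed KO value was −0.90. In Ezh2 KO the 12 h change was −0.44 ± 0.183 (0.0399) with overlapping groups and ended in 3 of 6 such fits, and Fasn was called there at no later time (−0.21, −0.25 and −0.08 at 24, 48 and 96 h). Acaca was called in Ezh2 KO at no time, with log2 fold changes of −0.27, −0.11, −0.35 and −0.27 at 12, 24, 48 and 96 h.

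Scd1 and Scd2 encode stearoyl-CoA desaturases, which make monounsaturated fatty acids, and as paralogs they may share reads. Scd1 in V19 held 159, 152 and 162 CPM at 96 h, against 61.6, 46.9 and 56.4 CPM at 0 h (2.86-fold, adjusted p = 1.48e-13), and in 1A 95.03, 94.4 and 96.7 CPM, against 41.0, 39.7 and 41.96 CPM (log2 1.22 ± 0.141, 2.21e-10). In Ezh2 KO it held 212, 197 and 200.5 CPM at 48 h, against 73.95, 64.9 and 84.8 CPM at 0 h (1.45 ± 0.131, 1.3e-13), and in Eed KO 198, 170.5 and 169 CPM, against 76.7, 74.9 and 91.7 CPM (1.14 ± 0.131, 2.07e-10). The later libraries lay above the 0 h libraries in all 4 lines. Scd2 at 96 h held 601, 582 and 571 CPM in V19, against 297, 254 and 296 CPM at 0 h, and its log2 fold changes at 96 h were 0.93, 0.40, 1.05 and 1.05 in Ezh2 KO, Eed KO, V19 and 1A.

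Elovl6, an elongase, fell at 12 h in all 4 lines, by 0.53, 0.53, 0.79 and 0.37 on the log2 scale in Ezh2 KO, Eed KO, V19 and 1A, and was at −0.61 in Eed KO without replicates 1 and 3 at 12 h. At 96 h it was lower in Ezh2 KO, at 155, 184 and 197 CPM, against 273, 256 and 258 CPM at 0 h (−0.56 ± 0.106, 2.13e-05), and in Eed KO, at 165, 152 and 158 CPM, against 206, 195 and 212 CPM (−0.37 ± 0.107, 0.00452), without overlap in either line, and was not called in V19 or 1A (0.06 and 0.11). Fads1 and Fads2, desaturases of polyunsaturated fatty acids, rose at 96 h in Ezh2 KO (0.64 and 0.54), Eed KO (0.47 and 0.41) and V19 (0.69 and 0.85). In 1A they were at 0.28 and 0.01 (adjusted p = 0.0679 and 0.964). Fads2 fell in 1A at 24 h, to 44.9, 37.6 and 37.7 CPM, against 56.1, 54.2 and 60.01 CPM at 0 h, with no overlap (−0.50 ± 0.116, 0.000374, and −0.58 without replicate 1 at 24 h). At 12 h in 1A it was at −0.32 (0.0242), a call that ended in 3 of the 6 fits that left out 1 library.

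Genes called in the same direction in all 4 lines were counted at each time and set beside the share of all 15083 genes. At 12 h 12 of the 32 were higher in all 4 lines (10.4% of all genes), at 24 h 8 (9.04%), at 48 h 15 (9.92%) and at 96 h 10 (9.08%). Of these, 8, 5, 10 and 8 kept their call in all 4 lines in every fit that left out 1 library. When the libraries that stood apart were left out, the count at 24 h was 8. At 12 and 48 h this left 1 library in a group, so no count is given. The 8 at 96 h were Fdft1, Sqle, Tm7sf2, Msmo1, Ebp, Insig1, Scd1 and Scd2. Lower in all 4 lines were Fasn and Elovl6 at 12 h (12.6% of all genes), of which Elovl6 kept its call in every such fit, and 0 of the 32 at 24, 48 and 96 h (8.57%, 9.04% and 7.08%).

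Before 2i was added, 10 of the 32 genes stood higher in Ezh2 KO than in 1A (11.9% of all genes did) and 0 lower (10.9%, and 22.8% in either direction), with 1 gene lower at an unadjusted p under 0.05 and 0 lower by DESeq2. Of the 10 calls, 6 remained in every fit that left out 1 library. The median difference was 0.08 on the log2 scale, against 0.01 over all genes. Scd1 held 73.95, 64.9 and 84.8 CPM in Ezh2 KO, against 41.0, 39.7 and 41.96 CPM in 1A, with no overlap (0.87 ± 0.141, adjusted p = 3.1e-06). Elovl6 held 273, 256 and 258 CPM in Ezh2 KO, against 174, 157 and 173 CPM in 1A (0.65 ± 0.107, 4.17e-06), and Ebp, Me1, Acss2 and Sqle were higher by 0.82, 0.65, 0.78 and 0.30. At 96 h 18 of the 32 genes stood higher (6.56% of all genes) and 0 lower (6.65%, and 13.2% in either direction), with 1 lower at an unadjusted p under 0.05 and 0 lower by DESeq2. The median difference was 0.33, against 0.01 over all genes. The count of 18 was 10 without 1A replicate 1 at 96 h, 11 without Ezh2 KO replicate 1 or replicate 3 at 96 h, and 9 on the RUV-normalized score. In every fit that left out 1 library 8 calls remained, those of Fdft1, Sqle, Nsdhl, Hsd17b7, Sc5d, Insig1, Acss2 and Scd1. Sqle held 231, 217 and 231 CPM in Ezh2 KO, against 149, 146 and 152 CPM in 1A (0.60 ± 0.0716, 1.47e-08), and Nsdhl 31.4, 28.7 and 30.6 CPM, against 20.7, 17.9 and 19.3 CPM (0.65 ± 0.117, 7.21e-05), with no overlap for either. Of 12 markers of primitive and parietal endoderm 11 were higher in Ezh2 KO at 0 h, with a sum of 1180 to 1290 CPM, against 751 to 824 CPM in 1A, and at 96 h 1 was higher and 2 lower, with 795 to 811 CPM against 886 to 999 CPM. Of 10 trophoblast markers 4 were higher and 3 lower at 0 h (198 to 204 CPM against 286 to 339 CPM) and 5 higher and 3 lower at 96 h (299 to 321 CPM against 372 to 449 CPM). Of 10 embryonic stem cell markers 7 were higher at 0 h (6690 to 6770 CPM against 5290 to 5420 CPM) and 2 higher and 2 lower at 96 h (5900 to 6150 CPM against 5790 to 6130 CPM). For visceral endoderm markers the sum was 209 to 266 CPM in Ezh2 KO, against 165 to 218 CPM in 1A, at 0 h and 46.6 to 72.8 CPM against 34.9 to 49.6 CPM at 96 h. That of fibroblast markers was 9.54 to 11.1 CPM against 11.7 to 16.8 CPM at 0 h and 3.8 to 6.66 CPM against 10.3 to 13.8 CPM at 96 h. Postn, Dcn and Lum were at 0 in Ezh2 KO at 0 h. The part of these cell types in these results was not tested.

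Between Eed KO and 1A some of the 32 genes were called higher and some lower. Whether their shares differed from those of all genes was not tested. At 0 h 12 of the 32 (37.5%) stood higher (26.4% of all genes) and 7 (21.9%) lower (23.3%, and 49.6% in either direction), with a median of 0.18 against 0.00 over all genes. Of these calls, 8 higher and 3 lower remained in every fit that left out 1 library. Me1 held 76.3, 85.03 and 71.1 CPM in Eed KO, against 13.6, 11.8 and 12.7 CPM in 1A, a 6.08-fold difference (log2 2.60 ± 0.129, adjusted p = 3.95e-23). Scd1 held 76.7, 74.9 and 91.7 CPM in Eed KO, against 41.0, 39.7 and 41.96 CPM in 1A (0.99 ± 0.141, 5.54e-08), and Scd2 338, 312 and 352 CPM, against 200.1, 216 and 228 CPM (0.64 ± 0.11, 2.71e-06). These genes and Ebp (1.08 ± 0.143) did not overlap between the lines. Stard4, Srebf1, Pmvk and Acss2 were higher by 0.68, 0.49, 0.74 and 0.79. Lower in Eed KO were Acly, at 343, 323 and 354 CPM, against 508, 526 and 583 CPM in 1A (−0.66 ± 0.105, 4.95e-07), Fasn, at 574, 508 and 558 CPM, against 720.1, 819 and 945 CPM (−0.60 ± 0.184, 0.00566), and Lss (−0.34 ± 0.0917, 0.00177).

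At 96 h 13 of the 32 (40.6%) stood higher in Eed KO than in 1A (30.9% of all genes) and 6 (18.8%) lower (24.4%, and 55.3% in either direction), with a median of 0.10 against 0.02 over all genes. Of these calls, 10 higher and 4 lower remained in every fit that left out 1 library. Hsd17b7 held 28.9, 25.2 and 27.6 CPM in Eed KO, against 14.3, 12.6 and 13.03 CPM in 1A (1.03 ± 0.122, 4.97e-10), and Dhcr7 61.9, 62.3 and 67.2 CPM, against 38.2, 40.04 and 38.9 CPM (0.71 ± 0.12, 1.79e-06). Hmgcs1 was lower, at 203, 207 and 198 CPM in Eed KO, against 348, 347 and 352 CPM in 1A (−0.78 ± 0.0784, 2.95e-12), as were Msmo1 (−0.50 ± 0.139, 0.00182), Cyp51 (−0.34 ± 0.0953, 0.00212) and Tm7sf2 (−0.75 ± 0.18, 0.000367). The libraries of the lines did not overlap for any of these genes.

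The Eed KO differences from 1A depended on the scale. On the RUV-normalized score 4 of the 32 genes were called higher and 2 lower at 0 h, and 1 higher and 6 lower at 96 h. The median of the 32 turned negative on it, to −0.06 at 0 h and −0.11 at 96 h. On that score Eed itself differed by −0.61 and −0.18 on the log2 scale between Eed KO and 1A at 0 and 96 h, against −3.94 and −4.09 in the counts. Me1 remained higher at 0 h (1.45, adjusted p = 2.77e-13) and was lower at 96 h (−0.39, 0.0188), where the counts had it higher (0.97 ± 0.113, 2.57e-10). Among the genes named above, the calls of Stard4 (0.01), Srebf1 (0.08), Pmvk (0.36), Acss2 (−0.19), Acly (−0.19) and Fasn (−0.17) at 0 h and of Hsd17b7 (0.10), Dhcr7 (0.06) and Tm7sf2 (−0.44) at 96 h ended on it. Scd1 and Scd2 remained higher at 0 h (0.45 and 0.38), and Cyp51 remained lower at 96 h (−0.57). Srebf1, higher at 96 h in the counts (0.43 ± 0.102), was at −0.07 on it, not called.

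Markers of other cell types also differed between Eed KO and 1A. All 12 markers of primitive and parietal endoderm were higher in Eed KO at 0 h, with a sum of 5860 to 6200 CPM, against 751 to 824 CPM in 1A, and all 12 at 96 h, at 2400 to 2680 CPM against 886 to 999 CPM. All 10 trophoblast markers were higher at both times, at 1710 to 2240 CPM against 286 to 339 CPM at 0 h and at 3000 to 3110 CPM against 372 to 449 CPM at 96 h. Of the 8 visceral endoderm markers 5 were tested, with 4 higher at 0 h (470 to 626 CPM against 165 to 218 CPM) and 3 at 96 h (121 to 168 CPM against 34.9 to 49.6 CPM), and Afp and Ttr were at 0 in 1A at 96 h. Of the 8 fibroblast markers 5 were tested, with 4 higher and 1 lower at 0 h (28 to 30 CPM against 11.7 to 16.8 CPM) and 3 higher and 1 lower at 96 h (30.8 to 33.9 CPM against 10.3 to 13.8 CPM), and Postn and Lum were at 0 in 1A at 0 h. Of the 10 markers of embryonic stem cells 7 were lower and 2 higher in Eed KO at 0 h (3920 to 4080 CPM against 5290 to 5420 CPM) and 8 lower at 96 h (4150 to 4230 CPM against 5790 to 6130 CPM). The mitochondrial share of the counts was 1.35 to 1.48% in Eed KO, against 0.929 to 1.15% in 1A, at 0 h and 1.42 to 1.71% against 0.728 to 1.32% at 96 h, without overlap at either time. The part of these cell types and of RNA quality in the values of the 32 genes was not tested, and in bulk RNA fewer cells of a type and less RNA per cell cannot be told apart.

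V19 had fewer calls against 1A. At 0 h 4 of the 32 genes stood higher (5.01% of all genes) and 2 lower (5.53%, and 10.5% in either direction), and at 96 h 8 stood higher (4.16%) and 1 lower (3.30%, and 7.45% in either direction). Median differences were 0.00 and 0.17, against 0.00 and 0.00 over all genes. The 0 h count of 6 was 2 to 4 when 1 library was left out, and it was 2 without 1A replicate 1 or 2 or 3 at 0 h or V19 replicate 1 or 3 at 0 h. The call that remained in each such fit was that of Ebp, at 26.5, 23.6 and 27.04 CPM in V19, against 15.5, 16.2 and 13.5 CPM in 1A (0.76 ± 0.149, adjusted p = 0.000222). At 96 h the count of 9 was 5 to 7 in such fits, and it was 5 without 1A replicate 2 or 3 at 96 h. Scd1 held 159, 152 and 162 CPM in V19 at 96 h, against 95.03, 94.4 and 96.7 CPM in 1A (0.72 ± 0.131, 9.4e-05), Fads2 92.1, 87.3 and 84.1 CPM, against 55.5, 57.8 and 57.6 CPM (0.62 ± 0.111, 7.96e-05), and Fads1 79.7, 78.1 and 89.6 CPM, against 49.2, 56.2 and 57.8 CPM (0.60 ± 0.123, 0.000604). For none of these desaturases did a V19 library overlap one of 1A. Me1 and Fdft1 were higher by 0.54 and 0.39. Of 10 trophoblast markers 1 was higher and 4 lower in V19 at 0 h, with a sum of 114 to 120 CPM, against 286 to 339 CPM in 1A, and 3 were lower at 96 h, with 180 to 186 CPM against 372 to 449 CPM. Of 12 endoderm markers 4 were higher at 0 h (787 to 886 CPM against 751 to 824 CPM) and 1 at 96 h (849 to 941 CPM against 886 to 999 CPM). Of 10 embryonic stem cell markers 2 were higher at 0 h (5920 to 6030 CPM against 5290 to 5420 CPM) and 2 higher and 1 lower at 96 h (5970 to 6150 CPM against 5790 to 6130 CPM). The sums of visceral endoderm markers were 129 to 174 CPM against 165 to 218 CPM at 0 h and 38.6 to 54.2 CPM against 34.9 to 49.6 CPM at 96 h. Those of fibroblast markers were 10.2 to 12.5 CPM against 11.7 to 16.8 CPM at 0 h and 10.8 to 14.1 CPM against 10.3 to 13.8 CPM at 96 h. Afp and Ttr were at 0 in V19 at both times. The part of these cell types in these differences was not tested.

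**Figure D3:**
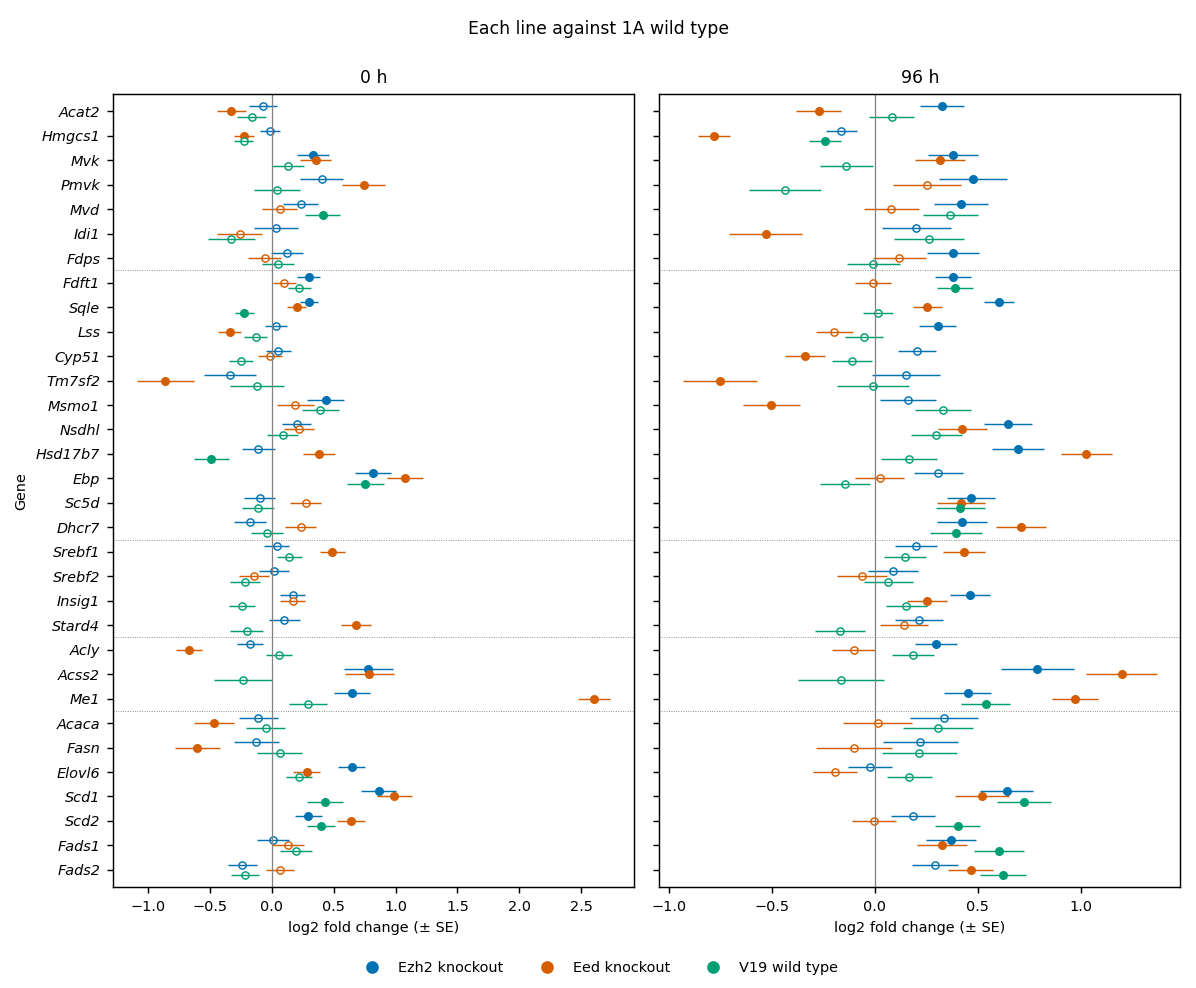
Circles give the log2 fold change of each gene (rows) in Ezh2 KO, Eed KO and V19 against 1A wild type at 0 h (left) and 96 h (right), bars its SE, and filled circles an adjusted p under 0.05. At 0 h Me1 in Eed KO lies at 2.60, and Ebp is higher in all 3 lines, which are set against the same 1A libraries.

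Whether the response to 2i itself differed from that of 1A was tested as a difference of log2 fold changes. At 12 h edgeR called 0 of the 32 genes in Ezh2 KO (1.56% of all genes were higher, 1.35% lower and 2.91% either) and 0 in V19 (0.0530%, 0.0663% and 0.119%). At an unadjusted p under 0.05 there were 1 higher and 1 lower in Ezh2 KO and 0 higher and 2 lower in V19, and DESeq2 called 0 in both. In Eed KO 5 were called higher (5.38%) and 1 lower (5.87%, and 11.2% either). Mvd increased more in Eed KO than in 1A, by 0.75 ± 0.192 (adjusted p = 0.0059), a value left uncertain by the overlap of its exons with genes on the opposite strand. Cyp51 differed by 0.53 (0.00601), and by 0.38 (0.0587) without Eed KO replicate 1 at 12 h. The count of 6 was 3 to 9 when 1 library was left out, and it was 3 without 1A replicate 2 at 0 h or 1A replicate 1 or 2 at 12 h or Eed KO replicate 1 at 12 h. Without the libraries that stood apart, with 1 Eed KO library left at 12 h, Mvd was at 0.70 and Cyp51 at 0.52.

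At 96 h the response of Ezh2 KO was called higher than that of 1A for 6 genes (5.42% of all genes) and lower for 1 (6.76%, and 12.2% either), that of Eed KO for 3 (14.9%) and 7 (12.4%, and 27.3%), and that of V19 for 1 (0.975%) and 1 (0.709%, and 1.68%). Median differences were 0.18, 0.05 and 0.14, against −0.01, 0.02 and 0.00 over all genes. The Eed KO median was −0.01 without replicate 2 of 1A at 0 h and 0.01 on the RUV-normalized score. Of the Eed KO calls, 2 higher and 5 lower remained in every fit that left out 1 library. The Ezh2 KO count of 7 was 2 to 7 when 1 library was left out, and it was 2 without Ezh2 KO replicate 1 at 0 h, 3 without Ezh2 KO replicate 2 at 0 h or 1A replicate 3 at 0 h, 4 without Ezh2 KO replicate 3 at 96 h. In every such fit 2 of its calls remained, those of Hsd17b7 (0.80 ± 0.181, adjusted p = 0.00124) and Elovl6 (−0.67 ± 0.151, 0.00125). Hsd17b7 was at 0.59 at 96 h in Ezh2 KO and at −0.21 in 1A, and Elovl6 at −0.56 in Ezh2 KO and at 0.11 in 1A. In Eed KO the response of Me1 was lower (−1.63 ± 0.174, 1.11e-10), as were those of Ebp (−1.05 ± 0.186, 1.35e-05), Msmo1 (−0.69 ± 0.204, 0.00764), Scd2 (−0.65 ± 0.154, 0.00102) and Hmgcs1 (−0.56 ± 0.111, 8.19e-05). Higher in Eed KO were the responses of Hsd17b7 (0.65 ± 0.177, 0.00419) and Acly (0.56 ± 0.147, 0.00286). In V19 the response of Fads2 was higher (0.84 ± 0.16, 0.00144) and that of Ebp lower (−0.90 ± 0.192, 0.0044). All of these differences share the 1A libraries at 0 and 96 h. For Ebp, Eed KO and V19 differed from 1A by 1.08 and 0.76 on the log2 scale at 0 h and by 0.02 and −0.15 at 96 h.

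**Figure D4:**
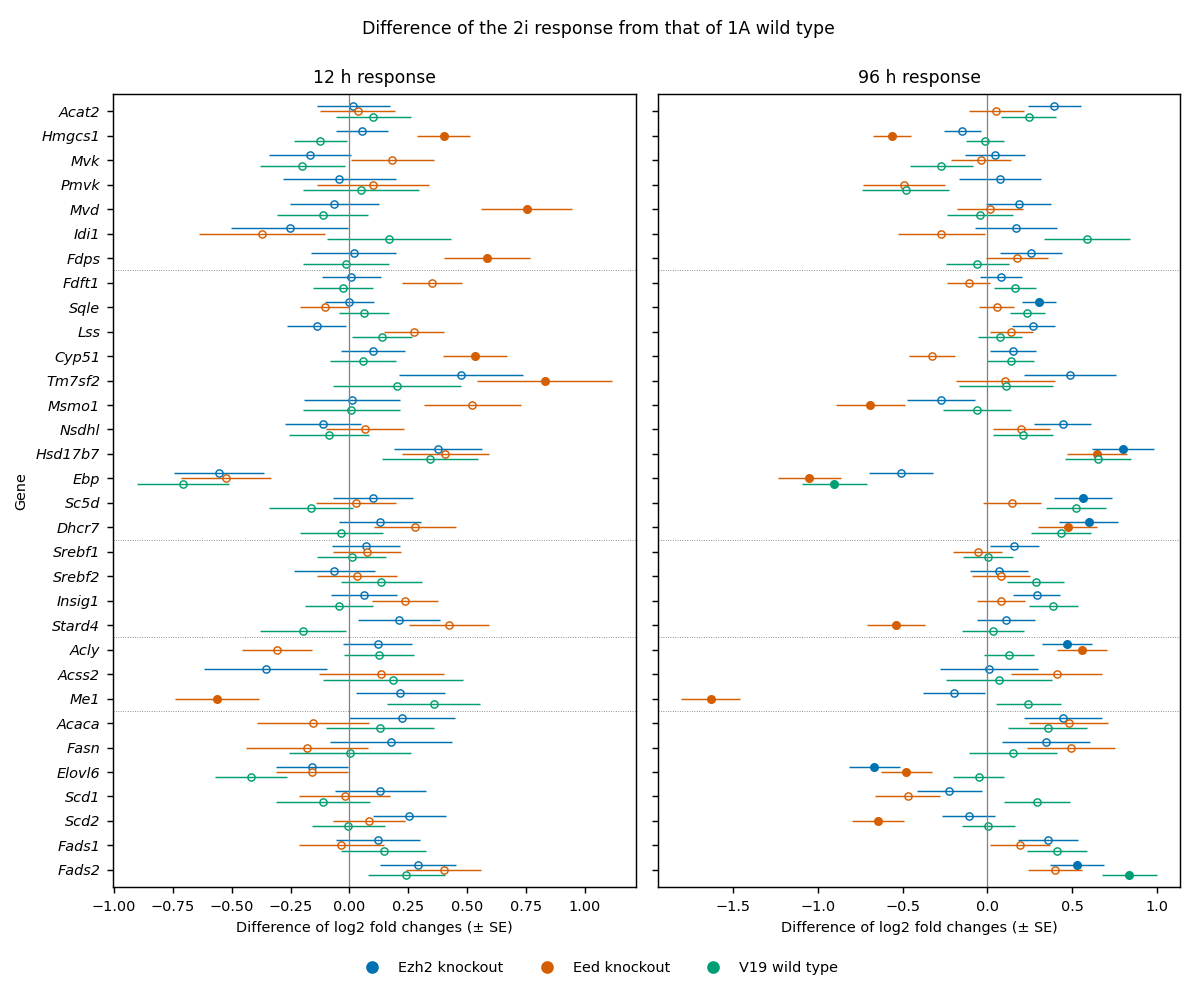
Circles give, for each gene (rows), the log2 fold change in 2i of Ezh2 KO, Eed KO or V19 minus that of 1A wild type at 12 h (left) and 96 h (right), bars its SE, and filled circles an adjusted p under 0.05. At 96 h Me1 (−1.63) and Ebp (−1.05) in Eed KO lie farthest to the low side, and Fads2 in V19 (0.84) and Hsd17b7 in Ezh2 KO (0.80) are among the highest.

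Related genes outside the 32 were described from 4 further lists at 96 h against 0 h. Between these times 22.2%, 23.3%, 24.8% and 25.1% of all genes were called higher in Ezh2 KO, Eed KO, V19 and 1A, and 20.7%, 16.4%, 22.7% and 23.5% lower. Of 16 genes of fatty acid oxidation, 6, 12, 8 and 10 were called higher in Ezh2 KO, Eed KO, V19 and 1A, and 1, 0, 3 and 1 lower. Cpt1a, which admits fatty acids to mitochondria, averaged 130.2 ± 15.2 CPM at 96 h in Ezh2 KO, against 29.8 ± 1.75 CPM at 0 h, and 116 ± 6.06 CPM in 1A, against 24.2 ± 0.821 CPM (SD, n = 3). Of 12 genes of sterol uptake, transport and efflux, 5, 7, 3 and 4 were higher in the same order of lines and 2, 0, 2 and 4 lower. The lysosomal cholesterol carrier Npc2 averaged 234 ± 22.2 CPM at 96 h in 1A, against 73.2 ± 6.13 CPM at 0 h, while the efflux transporter Abcg1 averaged 2.702 ± 0.603 CPM, against 10.3 ± 1.24 CPM. Of 11 genes of SREBP processing and sterol sensing, 3, 1, 3 and 2 were higher and 2, 1, 2 and 2 lower. Rnf145, a ubiquitin ligase of sterol sensing, averaged 66.8, 64.6, 61.3 and 56.2 CPM at 96 h in Ezh2 KO, Eed KO, V19 and 1A, against 130.3, 95.5, 108 and 111 CPM at 0 h. Of 19 genes of other isoprenoid and lipid synthesis, 11, 10, 9 and 7 were higher and 1, 2, 2 and 3 lower. Those called higher made up 37.5%, 75%, 50% and 62.5% of the list of fatty acid oxidation and 41.7%, 58.3%, 25% and 33.3% of that of sterol uptake, transport and efflux, in the same order of lines. They made up 27.3%, 9.09%, 27.3% and 18.2% of SREBP processing and sterol sensing and 57.9%, 52.6%, 47.4% and 36.8% of other isoprenoid and lipid synthesis.

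Levels between genes were compared per exonic length, as RPKM (CPM divided by the exonic length in kilobases), in 1A at 0 h. Acss2 was lowest at 1.98 ± 0.394 RPKM, followed by Hsd17b7 at 2.74 ± 0.261, Me1 at 3.48 ± 0.254 and Sc5d at 4.18 ± 0.62 RPKM (SD, n = 3). Fasn was highest at 79.4 ± 10.8 RPKM, above Acly at 68.6 ± 4.95, Fdps at 68.5 ± 2.66, Hmgcs1 at 52.96 ± 1.19 and Srebf2 at 47.9 ± 3.15 RPKM. The means of Acly and Fdps differed by less than their SD, and those of Fasn and Acly by less than the SD of Fasn. Sqle at 41.3 ± 1.53 RPKM and Msmo1 at 22.6 ± 2.49 RPKM lay between these ends, and Srebf1 was at 12.8 ± 1.51 RPKM.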

How the data were processed

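Polyadenylated RNA of 60 libraries (20 groups of 3) was sequenced. Per the submitters' processing notes, STAR 2.7.10b, featureCounts 2.0.3, MultiQC 1.14 and DESeq2 were used on GRCm39. The authors deposited raw counts per gene, with the sequencing runs of a library merged, and an RUV-normalized table of rounded whole numbers whose settings are not given in the sources used here, which is treated as a score. Whether counting used strand is not given in the sources used here. The 32 genes and the lists were chosen with earlier results of these data known.

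Genes were kept by edgeR's filterByExpr (minimum count 10, minimum total 15), libraries were scaled by TMM, and a model with 20 groups (40 residual degrees of freedom) was fitted to all libraries with edgeR 4.0.16 in R 4.3.3. Its quasi-likelihood test gave 28 comparisons, each adjusted by Benjamini-Hochberg over 15083 genes, with calls at an adjusted p under 0.05. SE is the absolute log2 fold change divided by the square root of F. The test was also run on counts simulated from its own fitted dispersion, with no libraries that stood apart. That run cannot show how the test performs on these libraries. No groups were formed from measured values. All 32 genes are named. Values per library were to be given for up to 6 called members per direction and comparison with the smallest adjusted p (up to 4 for a difference of response), and those given beyond this were chosen after their values had been seen.

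Alternatives were RLE size factors, no filter, the replicate number as a block, DESeq2 1.42.0, the RUV score with limma 3.58.1 on log2(score + 1), leaving out each library, and, chosen after seeing the data, leaving out the 6 libraries that stood apart. Replicate pairs differed by 1.133 to 28.4 chi-square per degree of freedom, where counting error alone gives about 1, and none were merged. Depth sets the precision of low counts. The third deposited table, of transformed values, was not used.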

Additional observations from a re-analysis of the deposited data

Results flagged for a closer look

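The response to 2i differed between a line and 1A, by a test of the difference itself (edgeR, adjusted over all genes), for the genes below, as log2 differences with up to 4 per direction and comparison. The Ezh2 KO response at 96 h was higher for Hsd17b7 (0.8), Dhcr7 (0.6), Sc5d (0.56) and Fads2 (0.53) and lower for Elovl6 (−0.67). At 12 h the Eed KO response was higher for Mvd (0.75), Fdps (0.58), Cyp51 (0.53) and Hmgcs1 (0.4) and lower for Me1 (−0.56). For Eed KO at 96 h the response was higher for Hsd17b7 (0.65), Acly (0.56) and Dhcr7 (0.47) and lower for Me1 (−1.63), Ebp (−1.05), Scd2 (−0.65) and Hmgcs1 (−0.56). For V19 at 96 h the response was higher for Fads2 (0.84) and lower for Ebp (−0.9). Of these, the calls of Dhcr7, Sc5d and Fads2 in Ezh2 KO, of Fdps, Cyp51, Hmgcs1 and Me1 at 12 h in Eed KO and of Dhcr7 at 96 h in Eed KO ended in at least 1 fit that left out a library. Leaving out the Eed KO libraries that stood apart at 12 h left 1 library in that group. The differences were then 0.70 for Mvd, 0.50 for Fdps, 0.52 for Cyp51, 0.44 for Hmgcs1 and −0.37 for Me1. All of these differences share the 1A libraries. The values of Mvd remain uncertain, as its exons overlap other genes on the opposite strand.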

How the results depend on the processing

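All 28 counts of called members stayed within 1.5 times under RLE size factors, no filter, DESeq2 and the replicate block. The counts of 1A at 24 and 48 h also did without the libraries that stood apart. On the RUV score the counts were 9 for Ezh2 KO against 1A at 96 h, 6 and 7 for Eed KO against 1A at 0 and 96 h, and Me1 (−0.392) and Srebf1 (−0.069) turned negative in Eed KO against 1A at 96 h. Leaving out 1 library gave counts of 10 to 14 for Ezh2 KO against 1A at 96 h, 2 to 4 and 5 to 7 for V19 against 1A at 0 and 96 h, 2 to 7 for the 96 h response of Ezh2 KO and 3 to 9 for the 12 h response of Eed KO. The cause was not tested. Over all genes, calls numbered 7488 and 8337 for Eed KO against 1A at 0 and 96 h, against 3005 and 3486 on the RUV score, and 18 for the 12 h response of V19, against 29 by DESeq2. The share of calls that were higher moved on the RUV score to 46%, from 56.9%, in Eed KO at 24 h, to 41.7%, from 57%, in Eed KO at 48 h, to 36%, from 49.6%, for Ezh2 KO against 1A at 96 h, and to 46.5%, from 57.9%, for the 96 h response of V19. For the 12 h response of V19 it was 44.4%, 60% with no filter, 55.2% by DESeq2 and 56.5% on the RUV score.

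Same-numbered replicates were not paired by the labels, and in 0 of 22 comparisons did all pairs correlate over 0.1 (range −0.287 to 0.344). With the replicate block, 4 genes were called for V19 against 1A at 0 h (6 without it), 12 for the 96 h response of Eed KO (10) and 17 in 1A at 96 h (18).

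Limits are the single line per knockout, the unstated RUV settings and strand of counting, and 3 libraries per group.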
